A study of Mus musculus with 6 samples.

Results

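The comparison described here sets the 4 kidney RNA-seq libraries of mice with a human APOL1 transgene, taken as one group, against the 2 libraries of wild-type (WT) mice, and so uses all 6 libraries of the series. Its members were chosen by genotype label: 2 libraries labelled G0APOL1 and 2 labelled G2APOL1 form the transgenic group, and 14386 of the 54146 genes in the table had enough counts to be tested. All mice, WT included, had lost one kidney by surgery (unilateral nephrectomy) at 6 weeks of age and ate a 4% salt diet afterwards. G0 is the common form of human APOL1 and G2 a form linked to kidney disease risk. The labels write the transgenic genotypes as EC/G0APOL1 and EC/G2APOL1 without spelling out EC, and the series title calls the expression cell-specific and inducible. The sources used here give no promoter, inducing agent, sex or age at tissue collection, and unoperated animals or animals on a normal diet are not analysed here. Whether replicates are separate animals is not stated. The p-values therefore measure the spread between these samples, which may be technical.

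APOL1 encodes apolipoprotein L1, a secreted and intracellular protein found in humans and some other primates and absent from wild-type mice. The kidney filters blood in glomeruli and recovers most of the filtrate in the proximal tubule, whose cells carry dense sets of transporters, take up filtered protein through megalin and cubilin, burn fatty acids and make glucose. The loop of Henle, the distal convoluted tubule and the collecting duct then adjust salt and water, and the urothelium lines the pelvis into which urine drains. Blood vessels, fibroblast-like stromal cells and macrophages fill the space between the tubules. A piece of kidney can hold more or less of each region, and in bulk tissue fewer cells of a type and less RNA per cell cannot be told apart.

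Total counts ranged from 8490396 to 11800932 per library, all 6 carry batch number 1, and mitochondrial transcripts took 14.6% and 21.1% of the WT counts and 12.6% to 15.9% of the transgenic counts. The WT libraries were the least alike of the replicate pairs, with a correlation of 0.913 across genes on the log2 CPM scale against 0.929 for G0APOL1 and 0.958 for G2APOL1. CPM, the normalised read count used throughout, is the count scaled to the library's effective size by edgeR's TMM. Transcripts of Ddx3y, a Y-linked gene, were at 27.1 and 28.9 CPM in WT and 26.7, 27.7, 20.7 and 28.1 CPM in transgenic libraries. Proximal tubule markers had a summed level of 58407 and 37060.5 CPM in WT and 64837, 57252, 65800.2 and 61098 CPM in the transgenic libraries. Values of the 4 transgenic libraries are given throughout in the order G0APOL1 replicates 1 and 2, then G2APOL1 replicates 1 and 2.

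In the transgenic kidneys 17 of 24 proximal tubule markers were higher than in WT. Lower than in WT were 8 of 11 urothelial genes, 10 of 18 endothelial markers, 18 of 37 matrix and fibroblast genes and 12 of 19 antigen presentation genes. Of the 14386 genes, 1481 passed at an adjusted p under 0.05 (10.3%), 779 of them higher (5.41%) and 702 lower (4.88%) in the transgenic libraries. The falls were larger than the rises: the median log2 fold change was 0.97 among genes that rose and -1.40 among genes that fell, and 542 genes fell but 359 rose by 2-fold or more. At 4-fold or more the counts were 133 lower and 50 higher. Genes that rose made up 9.52% and 7.54% of the normalised reads in WT and 16.0% to 17.5% in the transgenic libraries, and genes that fell made up 5.60% and 5.63% in WT and 2.57% to 2.75% in the transgenic libraries. Each of the 1481 genes had all 4 transgenic libraries on one side of both WT libraries, a separation seen for 35.7% of all tested genes. The count fell to 639 without WT replicate 2, to 879 without G0APOL1 replicate 1, to 950 without G2APOL1 replicate 1 and to 920 without G2APOL1 replicate 2, and 392 genes passed whichever library was left out.

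**Figure D1:**
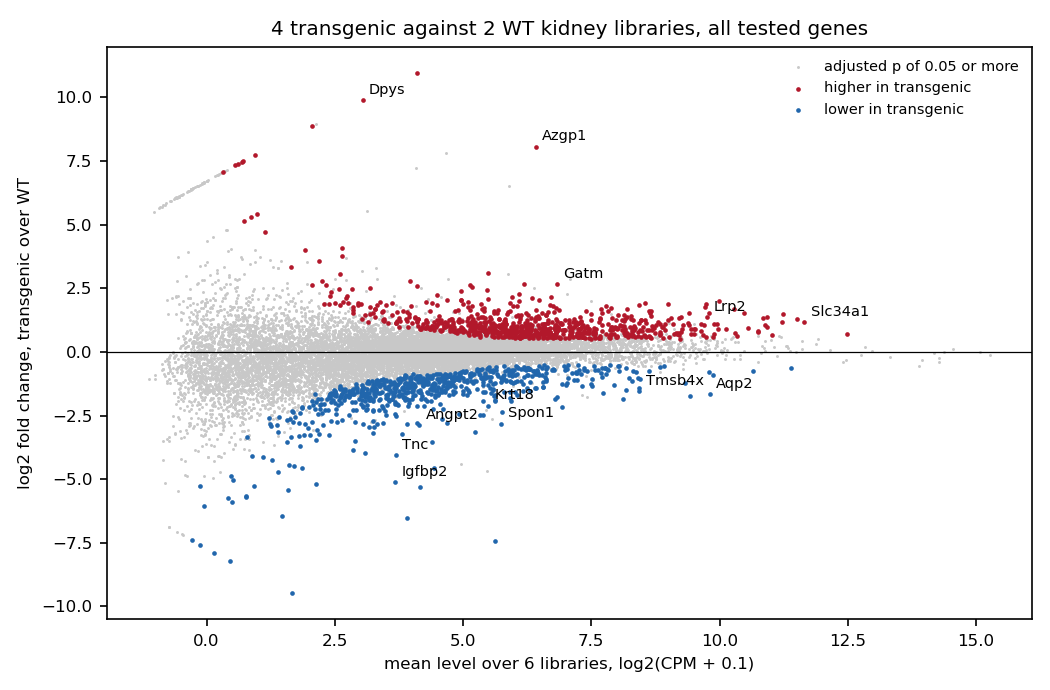
Log2 fold change of the 4 transgenic over the 2 WT libraries (vertical axis) against the mean level over all 6 libraries as log2(CPM + 0.1) (horizontal axis) for the 14386 tested genes, each a point. Red and blue points are the 779 genes higher and the 702 genes lower at an adjusted p under 0.05. Changes of 8-fold or more are falls in 49 genes and rises in 21.

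Taken apart, the G0APOL1 libraries differed from WT at 1175 genes (8.17%), 645 higher (4.48%) and 530 lower (3.68%). The G2APOL1 libraries differed from WT at 1178 genes (8.19%), 657 higher (4.57%) and 521 lower (3.62%). Both comparisons use the same WT libraries, so their calls are not independent. Of the 1481 pooled calls, 729 passed for each transgene alone, 238 for G0APOL1 alone only, 235 for G2APOL1 alone only and 279 for neither alone. Between the transgenes themselves 69 genes differed (0.48%), 25 higher and 44 lower in G2APOL1, and 3 of the pooled calls were among these 69.

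The changes with the smallest p were large. The pooled fit counts a difference between the transgenes as spread, so a choice by its p favours genes that are alike in both transgenes. Spon1, which encodes the matrix protein spondin (ENSMUSG00000038156.16, chromosome 7, 113765998 to 114043370, GRCm38), was at 121 and 129 CPM in WT and 22.9, 13.6, 16.03 and 18.5 CPM in transgenic libraries (log2 fold change -2.82 ± 0.20, adjusted p = 2.38e-05). Gatm, the first enzyme of creatine synthesis (ENSMUSG00000027199.14, chromosome 2, 122594467 to 122611303), was at 21.02 and 29.2 CPM in WT and 162, 155, 149 and 169 CPM in transgenic libraries (log2 fold change 2.66 ± 0.19, adjusted p = 2.38e-05). The highest transgenic library of Spon1 lay far below both WT libraries, and the lowest of Gatm far above them. Fgf1, a fibroblast growth factor, was at 35.1 and 27.9 CPM in WT and 137, 130.2, 159.5 and 139 CPM in transgenic libraries (log2 fold change 2.17 ± 0.18, adjusted p = 9.41e-05). Habp2, a hyaluronan-binding serine protease (ENSMUSG00000025075.14, chromosome 19, 56287137 to 56320822), was at 23.3 and 15.1 CPM in WT and 87.3, 100.4, 93.8 and 89.1 CPM in transgenic libraries (log2 fold change 2.27 ± 0.21, adjusted p = 0.000155). The groups were again clear of each other in both genes. Angpt2, a vessel-destabilising ligand of the receptor Tie2 (ENSMUSG00000031465.6, chromosome 8, 18690263 to 18741562), was at 43.3 and 39.9 CPM in WT and 5.34, 3.78, 6.52 and 6.73 CPM in transgenic libraries (log2 fold change -2.89 ± 0.27, adjusted p = 0.000155). The actin-binding peptide gene Tmsb4x (ENSMUSG00000049775.16, chromosome X, 167207093 to 167209315) was at 603 and 630.2 CPM in WT and 208, 186, 231 and 219.6 CPM in transgenic libraries (log2 fold change -1.55 ± 0.15, adjusted p = 0.000167). Angpt2 thus fell to a few CPM, while Tmsb4x stayed abundant at a lower level. Plet1, an epithelial surface protein, was at 151 and 81.5 CPM in WT and 23.4, 21.3, 19.5 and 26.1 CPM in transgenic libraries (log2 fold change -2.36 ± 0.22, adjusted p = 0.000167). Hspb1, a small heat shock protein, was at 91.4 and 104 CPM in WT and 25.3, 27.4, 27.4 and 21.7 CPM in transgenic libraries (log2 fold change -1.94 ± 0.17, adjusted p = 0.000107), and its level with near-identical copies summed changed by a log2 ratio of -1.96. Every one of these 8 calls held whichever library was left out.

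A few genes were close to silent in one genotype. Azgp1, a secreted zinc-binding glycoprotein (ENSMUSG00000037053.6, chromosome 5, 137981520 to 137990233), was at 0.892 and 0 CPM in WT and 112, 142, 137 and 123 CPM in transgenic libraries (log2 fold change 8.07 ± 0.53, adjusted p = 9.44e-05). The WT level rests on 9 counts in replicate 1 and 0 in replicate 2, and the fitted log2 fold change was 13.26 without replicate 1 and 7.15 without replicate 2, so its size is poorly fixed while the call held. Dpys, an enzyme of pyrimidine breakdown (ENSMUSG00000022304.13, chromosome 15, 39768487 to 39857470), had 0 counts in both WT libraries and was at 18.6, 18.7, 5.74 and 5.77 CPM in the transgenic libraries, at least 74.6-fold higher against a floor of 3 counts over the WT group. Both genes were present in each transgenic library, and Dpys was higher in G0APOL1 than in G2APOL1 in these libraries (-1.69 ± 0.43 log2, adjusted p = 0.197, for G2APOL1 over G0APOL1). Ugt1a9, a glucuronosyltransferase, had 0 counts in WT against 51.7, 21.9, 13.97 and 15.5 CPM, at least 161-fold higher, but it shares exons and 7 near-identical copies with the other Ugt1a genes, and the log2 ratio with its copies summed was 1.73. Its call was lost without WT replicate 2, and neither Dpys nor Ugt1a9 passed in limma-voom (adjusted p = 0.164 and 0.242). In the other direction Oit1 was at 7.14 and 8.68 CPM in WT and had 3 counts in all transgenic libraries together, a 102-fold difference with a 95% exact counting interval of 34.2 to 499.7. The histone gene Hist1h2bq was at 11.3 and 7.03 CPM in WT and at 0 in all 4 transgenic libraries (at least 120.0-fold lower), with 14 near-identical copies that make the assignment of its reads uncertain and a log2 ratio of 0.12 with the copies summed. Serpina1b, one of the mouse genes of the antitrypsin family, was at 91.7 and 91.1 CPM in WT and 9.500, 6.15, 10.5 and 14.8 CPM in transgenic libraries, and with its near-identical copies summed the log2 ratio was -1.31.

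**Figure D2:**
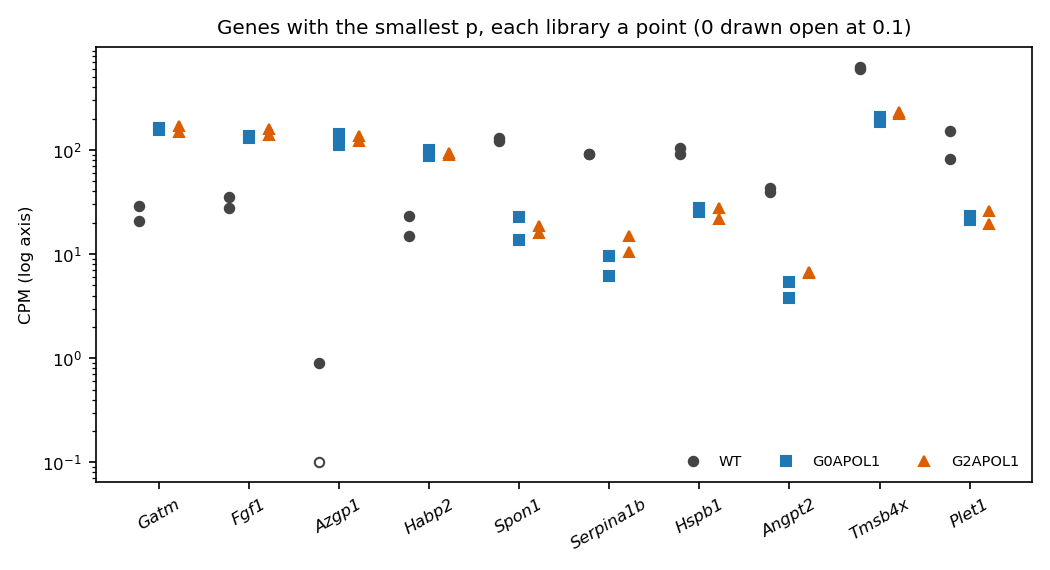
CPM on a log axis of the 10 named genes with the smallest p, each symbol a library (circles WT, squares G0APOL1, triangles G2APOL1; a library at 0 is drawn open at 0.1). In every gene shown the 4 transgenic libraries lie apart from both WT libraries, which the choice by smallest p favours. They lie above WT in Gatm, Fgf1, Azgp1 and Habp2 and below WT in the other 6.

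The proximal tubule held the broadest rise. Of 24 proximal tubule markers 17 rose, 0 fell and 7 did not pass, against 5.41% of all genes rising, with a median log2 fold change of 1.11 over the 24 against 0.00 over all genes. All 17 also passed for each transgene alone. Slc34a1, the main sodium-phosphate cotransporter of the brush border (ENSMUSG00000021490.11, chromosome 13, 55398187 to 55415592), was at 1940.2 and 1575 CPM in WT and 3949, 3899, 3931 and 4076 CPM in transgenic libraries (log2 fold change 1.17 ± 0.18, adjusted p = 0.00208). Lrp2, which encodes the endocytic receptor megalin (ENSMUSG00000027070.14, chromosome 2, 69424340 to 69586065), was at 477 and 363 CPM in WT and 1227, 1066, 1009 and 1065 CPM in transgenic libraries (log2 fold change 1.38 ± 0.18, adjusted p = 0.00115). Its partner Cubn, the receptor cubilin, was at 203 and 128 CPM in WT and 349, 270.0, 348 and 382 CPM in transgenic libraries (log2 fold change 1.03 ± 0.21, adjusted p = 0.0101). In each of the 3 genes the lowest transgenic library lay above the higher WT library. Slc5a2, the high-capacity glucose transporter SGLT2, was at 93.3 and 103 CPM in WT and 142, 239.7, 184 and 183 CPM in transgenic libraries (log2 fold change 0.93 ± 0.20, adjusted p = 0.012). Cyp2e1, a cytochrome P450, was at 762 and 497 CPM in WT and 1655, 1558, 2023 and 2113 CPM in transgenic libraries (log2 fold change 1.55 ± 0.22, adjusted p = 0.00164). Miox, which starts the breakdown of inositol, was at 1194 and 1155 CPM in WT and 2817, 2099.5, 2239 and 2152 CPM in transgenic libraries (log2 fold change 0.99 ± 0.18, adjusted p = 0.00625). The water channel Aqp1 and Pck1, which commits carbon to glucose synthesis, did not pass, with log2 fold changes of 0.26 and 0.61. WT replicate 2 was the lowest library for the summed list at 37060.5 CPM, while WT replicate 1 at 58407 CPM lay above the lowest transgenic library. Of the 24 markers 13 passed without WT replicate 2, all higher.

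Transporters of organic ions and amino acids moved the same way. Slc22a8 is counted both here and among the proximal tubule markers, and Slc22a5 both here and among the genes of fatty acid oxidation. Of 18 organic ion transporters of the proximal tubule 10 rose and 1 fell (median 0.87), and of 17 amino acid transporters and their partners 7 rose and 0 fell (median 0.62). Slc22a8, the organic anion transporter OAT3, was at 143 and 204 CPM in WT and 636, 604, 408 and 447 CPM in transgenic libraries (log2 fold change 1.60 ± 0.23, adjusted p = 0.00167). The carnitine transporter Slc22a5 was at 89.05 and 84.8 CPM in WT and 154, 176, 185 and 167 CPM in transgenic libraries (log2 fold change 0.97 ± 0.15, adjusted p = 0.00242). The urate transporter Slc22a12 was at 653 and 425 CPM in WT and 1107, 1063, 1253 and 1165 CPM in transgenic libraries (log2 fold change 1.09 ± 0.20, adjusted p = 0.00537). Abcc4, an efflux pump for organic anions and cyclic nucleotides, was the member that fell, from 40.95 and 38.2 CPM to 10.2, 10.1, 19.2 and 16.7 CPM (log2 fold change -1.49 ± 0.28, adjusted p = 0.00667). The transporters that rose thus include uptake carriers of the basolateral and the apical side, and Abcc4 went against them in all 4 libraries. Slc7a8, the light chain of a neutral amino acid exchanger, was at 11.5 and 18.02 CPM in WT and 54.01, 70.02, 38.7 and 52.6 CPM in transgenic libraries (log2 fold change 1.87 ± 0.28, adjusted p = 0.00194). Exons of Slc5a2, Slc22a12 and Slc1a1 overlap a gene on the other strand over 20.6%, 30.1% and 31.9% of their length, and the sources used here do not say whether counting used strand. Slc1a1, the glutamate transporter, was at 169 and 156 CPM in WT and 311, 287, 297 and 315 CPM in transgenic libraries (log2 fold change 0.90 ± 0.15, adjusted p = 0.00325). Cltrn, the collectrin that carries amino acid transporters to the surface, was at 771 and 644 CPM in WT and 1461, 1311, 1287 and 1211 CPM in transgenic libraries (log2 fold change 0.90 ± 0.17, adjusted p = 0.00667). Slc6a19, the neutral amino acid transporter that pairs with collectrin, missed the threshold at 1.13 ± 0.34 (adjusted p = 0.069). Without WT replicate 2 the counts that rose were 5 of 18 and 5 of 17.

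Genes of glucose output and creatine gave 9 that rose and 1 that fell of 16 (median 0.67). Slc2a2, the glucose transporter GLUT2 of the basolateral membrane, was at 6.94 and 15.2 CPM in WT and 50.7, 68.5, 56.8 and 65.3 CPM in transgenic libraries (log2 fold change 2.45 ± 0.30, adjusted p = 0.000775). G6pc, which releases free glucose, was at 107 and 86.03 CPM in WT and 260.0, 453, 214 and 247 CPM in transgenic libraries (log2 fold change 1.61 ± 0.30, adjusted p = 0.00952). Ckb, the brain-type creatine kinase, was the gene that fell, from 436 and 373 CPM to 146, 174, 163 and 174 CPM (log2 fold change -1.30 ± 0.15, adjusted p = 0.000527). Creatine synthesis (Gatm) and this creatine kinase therefore moved in opposite directions, while Gamt, the second enzyme of creatine synthesis, did not pass at 0.32 ± 0.25 (adjusted p = 0.49). Without WT replicate 2, G6pc lost its call and 3 of the 16 genes rose. Without G0APOL1 replicate 1, G2APOL1 replicate 2 or WT replicate 1, 6 rose.

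Of 30 genes of fatty acid oxidation 11 rose and 1 fell, with a median of 0.55. Hadh, a mitochondrial dehydrogenase of the beta-oxidation cycle, was at 191 and 95.9 CPM in WT and 343, 375, 353 and 345 CPM in transgenic libraries (log2 fold change 1.30 ± 0.24, adjusted p = 0.00587). Cpt1a, which admits long-chain fatty acids to mitochondria, was at 115 and 145 CPM in WT and 186, 217, 217 and 231 CPM in transgenic libraries (log2 fold change 0.71 ± 0.17, adjusted p = 0.018). The mitochondrial thiolase Acaa2 was the member that fell (log2 fold change -0.52 ± 0.14, adjusted p = 0.0382), a call lost when any single library was left out. The dehydrogenases Acadm and Acadl and the subunit Hadha did not pass, at 0.35, 0.36 and 0.12 on the log2 scale, so the rise covered part of the pathway. Slc27a2, a fatty acid carrier and acyl-CoA synthetase, was at 1750.0 and 1242 CPM in WT and 3810.1, 3160.0, 3861 and 3748 CPM in transgenic libraries (log2 fold change 1.28 ± 0.20, adjusted p = 0.00236). Of 24 genes of cholesterol synthesis 4 rose (16.7% called, against 10.3% of all tested genes). Cholesterol genes that rose numbered 1 without WT replicate 2 and 2 without WT replicate 1 or G0APOL1 replicate 1.

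Nuclear-encoded subunits of the respiratory chain gave 4 that rose and 0 that fell of 29 (median 0.12), or 13.8% called against 10.3% of all tested genes. Among them were 2 subunits of complex II, Sdha and Sdhc. Sdha was at 217 and 135 CPM in WT and 476, 440.2, 555 and 582 CPM in transgenic libraries (log2 fold change 1.54 ± 0.22, adjusted p = 0.00147). Sdhc was at 303 and 221 CPM in WT and 434, 419.9, 419 and 405 CPM in transgenic libraries (log2 fold change 0.68 ± 0.17, adjusted p = 0.0237). Sdhb, another subunit of the same complex, did not pass at 0.12 ± 0.16 (adjusted p = 0.699). Of these nuclear genes 1 rose without WT replicate 2 and 2 without G0APOL1 replicate 1 or either G2APOL1 library. Of 13 transcripts of the mitochondrial genome, mt-Nd3 fell (log2 fold change -0.62 ± 0.17, adjusted p = 0.0335) and the others did not pass (7.69% called). The mitochondrial share of counts was highest in WT replicate 2, and the mt-Nd3 call was lost without WT replicate 2, either G0APOL1 library or either G2APOL1 library. Of 24 antioxidant and glutathione genes 6 rose and 1 fell. Osgin1 was at 44.7 and 45.6 CPM in WT and 95.4, 95.3, 157 and 149.6 CPM in transgenic libraries (log2 fold change 1.46 ± 0.24, adjusted p = 0.00294). The peroxide-degrading enzyme Cat was at 544 and 427 CPM in WT and 1115, 899, 1052 and 977 CPM in transgenic libraries (log2 fold change 1.06 ± 0.18, adjusted p = 0.00339), while the glutathione transferase Gstm1 fell to 658, 664, 798 and 762 CPM from 1517 and 1199 CPM (log2 fold change -0.91 ± 0.17, adjusted p = 0.00525). Nqo1 and Gclc, textbook targets of the factor Nrf2, did not pass, at -0.11 and 0.47. The 6 antioxidant genes that rose became 2 without WT replicate 2, and 3 without G0APOL1 replicate 1 or G2APOL1 replicate 2.

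Hnf4a, the nuclear receptor that drives maturation of proximal tubule cells, was at 275 and 206 CPM in WT and 577, 461, 535 and 604 CPM in transgenic libraries (log2 fold change 1.18 ± 0.18, adjusted p = 0.0024), and its call held whichever library was left out. Of 25 lineage transcription factors of the tubule, Hnf4a and Cux1 rose and 4 fell. Cux1 was at 0.80 ± 0.16 (adjusted p = 0.00849), a call lost without WT replicate 2. The 4 that fell were the collecting duct and distal factors Gata3 (-1.29) and Grhl2 (-1.84), and Pax2 (-1.003) and Sim2 (-1.21), of which 2 passed without G0APOL1 replicate 1 or G2APOL1 replicate 1, 1 without WT replicate 1 and 0 without WT replicate 2. Promoters of genes that rose were read for the HNF4 motif CAAAGTCCA on either strand, in RefSeq windows (GRCm38.p6) from 250 bases before to 50 after the gene start, which were matched for 10754 of the tested genes. The motif was found in 58 of the 10754 (0.539%), in 12 of 600 genes that rose (2%) and in 0 of 521 that fell, and in 0 of 21 proximal tubule markers tested. The HNF1 motif, GTTAAT and ATTAA around a free base and also read on either strand, was found in 8 of the 10754, in 3 of the 600 and in 0 of the 521. These are matches of letters, with no measurement of binding. Genes that rose and held the HNF4 motif but are not printed were Hsd3b3, Pafah2, Nat8, Cdcp1, Pipox, Sptlc1, Rab11fip3 and Fhl1. For the HNF1 motif these were Slc10a2 and Mia2. The windows below are printed in gene orientation, with the matching bases in capitals. They belong to 5 genes that rose and whose proteins work in the proximal tubule, chosen after their values were seen.

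Pdzk1, a scaffold of brush border transporters, chr3:96830069-96830098, plus strand: aatctttgtcCAAAGTCCAgtgagttccaa
Abcd3, a peroxisomal fatty acid transporter, chr3:121815270-121815299, minus strand: cccgggaagcCAAAGTCCAcggtgggctcg
Agxt2, a mitochondrial aminotransferase, chr15:10358502-10358531, plus strand: cttctaatatCAAAGTCCAgtccagtcagt
Treh, the brush border trehalase, chr9:44673152-44673181, plus strand: cctcatagccTGGACTTTGgctgacctggg
Cltrn, the collectrin described above, HNF1 motif, chrX:164090124-164090153, plus strand: ctgatgggcGTTAATTATTAAaccttttag

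Among these, Agxt2 was at 26.97 and 19.8 CPM in WT and 112, 80.5, 67.5 and 67.9 CPM in transgenic libraries (log2 fold change 1.81 ± 0.25, adjusted p = 0.00141) and Abcd3 at 192 and 118 CPM in WT and 360.2, 381, 288 and 271 CPM in transgenic libraries (log2 fold change 1.07 ± 0.22, adjusted p = 0.0102). Treh was at 85.97 and 41.6 CPM in WT and 129.6, 121, 143 and 140.2 CPM in transgenic libraries (log2 fold change 1.06 ± 0.25, adjusted p = 0.0195). Pdzk1 rose by less, to 1563, 1292, 1530.3 and 1453 CPM from 1078 and 659 CPM (log2 fold change 0.75 ± 0.21, adjusted p = 0.0389).

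**Figure D3:**
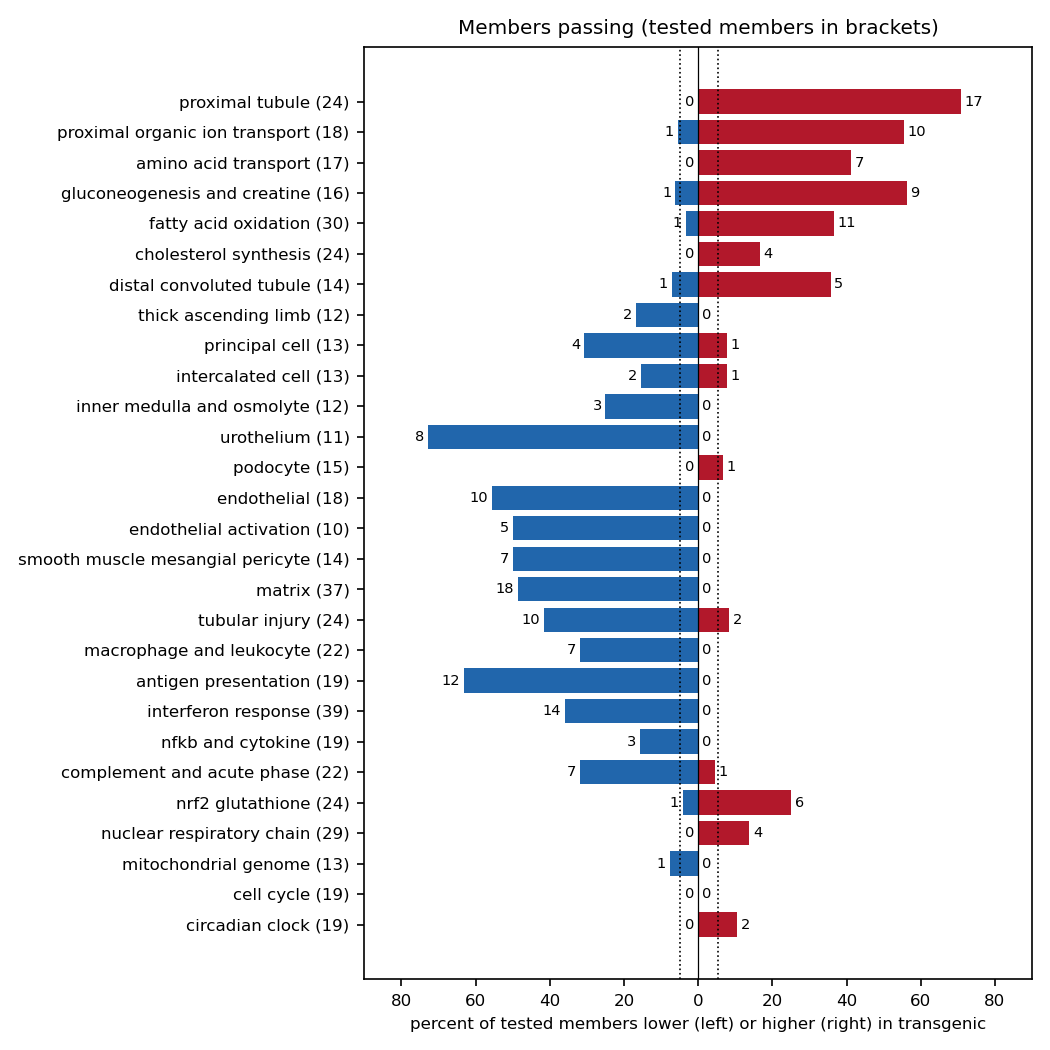
Percent of each list's tested members that passed at an adjusted p under 0.05, to the left for lower and to the right for higher in the transgenic libraries, with the number of members at the bar end and the number tested in brackets. Dotted lines mark the 4.88% of all tested genes that fell and the 5.41% that rose: the proximal tubule, transport and fatty acid lists extend to the right, and the urothelial, vascular, matrix and antigen presentation lists to the left.

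Past the proximal tubule the segments did not share a direction. Of 14 genes of the distal convoluted tubule, which reabsorbs sodium chloride, calcium and magnesium, 5 rose and 1 fell (median 1.03). Tmem52b was at 10.8 and 26.6 CPM in WT and 98.2, 91.2, 71.1 and 76.1 CPM in transgenic libraries (log2 fold change 2.17 ± 0.33, adjusted p = 0.00351). Pvalb, the calcium-binding parvalbumin of the early segment, was at 10.6 and 16.4 CPM in WT and 39.7, 33.8, 22.97 and 26.4 CPM in transgenic libraries (log2 fold change 1.19 ± 0.29, adjusted p = 0.0243). Slc12a3, the thiazide-sensitive cotransporter that defines the segment, did not pass at 1.48 ± 0.76 (adjusted p = 0.329), with 72.5 and 143 CPM in WT and 224, 628, 176 and 176 CPM in transgenic libraries. Stk39, the kinase that activates it, fell from 52.4 and 63.2 CPM to 32.8, 30.99, 30.7 and 30.3 CPM (log2 fold change -0.89 ± 0.17, adjusted p = 0.00811). Klhl3, part of the complex that degrades WNK kinases, was at 10.6 and 14.2 CPM in WT and 26.9, 45.9, 21.3 and 23.4 CPM in transgenic libraries (log2 fold change 1.24 ± 0.33, adjusted p = 0.034). The summed list was at 1111 and 1367 CPM in WT and 2346, 2720.1, 1603 and 1494 CPM in the transgenic libraries, higher in both G0APOL1 than in both G2APOL1 libraries. The 5 genes that rose became 1 without G0APOL1 replicate 1 or WT replicate 1, and 3 without WT replicate 2, which also ended the Stk39 call. Of 12 genes of the thick ascending limb 0 rose and 2 fell (16.7% called, against 10.3% of all tested genes). The 2 were Ppp1r1a (log2 fold change -0.72 ± 0.14, adjusted p = 0.00869) and the prostaglandin receptor Ptger3 (log2 fold change -0.68 ± 0.18, adjusted p = 0.0359). Slc12a1, the furosemide-sensitive cotransporter, did not pass at -0.65 ± 0.20 (adjusted p = 0.0576), although it did in DESeq2 (adjusted p = 0.0115) and in limma-voom (adjusted p = 0.0394). The Ptger3 call was lost when any single library was left out.

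In the collecting duct the water channel fell. Aqp2, the vasopressin-regulated channel of principal cells (ENSMUSG00000023013.5, chromosome 15, 99579055 to 99584547), was at 2045 and 1251 CPM in WT and 625, 379, 555 and 549.5 CPM in transgenic libraries (log2 fold change -1.64 ± 0.22, adjusted p = 0.0014). Of 13 principal cell genes 4 fell and 1 rose (median -0.52). The transcription factor Elf5 was at 28.6 and 21.3 CPM in WT and 7.37, 3.90, 4.03 and 2.35 CPM in transgenic libraries (log2 fold change -2.496 ± 0.39, adjusted p = 0.00236). The pump regulator Fxyd4 was at 111 and 57.8 CPM in WT and 26.5, 21.6, 26.1 and 37.6 CPM in transgenic libraries (log2 fold change -1.60 ± 0.27, adjusted p = 0.00411), both genes with all transgenic libraries below WT. The vasopressin receptor Avpr2, which overlaps Arhgap4 on the other strand over 81.3% of its length, also fell (log2 fold change -0.87 ± 0.24, adjusted p = 0.034), and the channel subunit Kcne1 rose (log2 fold change 1.39 ± 0.28, adjusted p = 0.00893), a call lost without WT replicate 2. Subunits of the sodium channel ENaC did not pass, at 0.45 for Scnn1a, -0.35 for Scnn1b and 0.20 for Scnn1g. Among 13 intercalated cell genes, which handle acid and base, Slc26a4, the chloride-bicarbonate exchanger pendrin of the base-secreting type, was at 9.62 and 10.8 CPM in WT and 50.1, 42.5, 31.9 and 41.6 CPM in transgenic libraries (log2 fold change 2.02 ± 0.25, adjusted p = 0.000786). Slc4a1, the exchanger of the acid-secreting type that red cells also carry, was at 53.9 and 66.8 CPM in WT and 22.2, 32.4, 21.9 and 32.4 CPM in transgenic libraries (log2 fold change -1.15 ± 0.22, adjusted p = 0.00699). Aqp6 was at 83.9 and 206 CPM in WT and 57.1, 53.1, 46.1 and 58.8 CPM in transgenic libraries (log2 fold change -1.43 ± 0.29, adjusted p = 0.0132). The calls of Slc4a1 and Aqp6 were lost without WT replicate 2, while that of Slc26a4 held throughout.

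Genes of the inner medulla and its lining pointed down. The urea transporter gene Slc14a2 was at 57.2 and 42.1 CPM in WT and 12.6, 15.1, 20.6 and 20.5 CPM in transgenic libraries (log2 fold change -1.53 ± 0.25, adjusted p = 0.00282) and Slc14a1 at 24.4 and 23.1 CPM in WT and 5.44, 1.77, 4.97 and 6.62 CPM in transgenic libraries (log2 fold change -2.33 ± 0.40, adjusted p = 0.00409). The betaine transporter Slc6a12 was at 18.5 and 16.04 CPM in WT and 3.31, 3.43, 3.69 and 8.12 CPM in transgenic libraries (log2 fold change -1.90 ± 0.40, adjusted p = 0.0114). These were the 3 of 12 inner medulla and osmolyte genes that fell, and 0 rose. The Slc6a12 call was lost without either WT library, and 5 genes fell without G0APOL1 replicate 2. Urothelial genes fell most: 8 of 11 fell, 0 rose and the median was -2.30. The uroplakin Upk1b was at 15.6 and 14.9 CPM in WT and 3.63, 3.78, 1.29 and 3.74 CPM in transgenic libraries (log2 fold change -2.30 ± 0.43, adjusted p = 0.00661). Upk3a was at 26.7 and 13.3 CPM in WT and 3.63, 7.33, 2.14 and 3.42 CPM in transgenic libraries (log2 fold change -2.28 ± 0.45, adjusted p = 0.00853). Psca was at 87.9 and 19.8 CPM in WT and 3.95, 6.62, 3.17 and 4.70 CPM in transgenic libraries (log2 fold change -3.55 ± 0.53, adjusted p = 0.00617). The cornified envelope gene Sprr1a was at 56.6 and 33.5 CPM in WT and 7.26, 12.1, 9.34 and 9.40 CPM in transgenic libraries (log2 fold change -2.24 ± 0.27, adjusted p = 0.000755). The summed list was at 285 and 167 CPM in WT and 23.5, 41.7, 29.4 and 42.8 CPM in the transgenic libraries, with none of its defining uroplakins at 0 in WT. Igfbp2 was at 57.2 and 14.7 CPM in WT and 0.213, 1.18, 1.20 and 1.496 CPM in transgenic libraries (log2 fold change -5.12 ± 0.62, adjusted p = 0.00164). Fcgbp, at 85.1 and 16.7 CPM in WT and 0.854, 1.06, 1.46 and 1.71 CPM in transgenic libraries (log2 fold change -5.30 ± 0.60, adjusted p = 0.00184), showed the same split between the WT libraries as Igfbp2, higher in WT replicate 1. Without either WT library 4 of the 11 urothelial genes passed, and the Upk3a call was lost without WT replicate 1. Psca, Igfbp2 and Fcgbp did not pass in limma-voom (adjusted p = 0.1002, 0.0852 and 0.19).

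**Figure D4:**
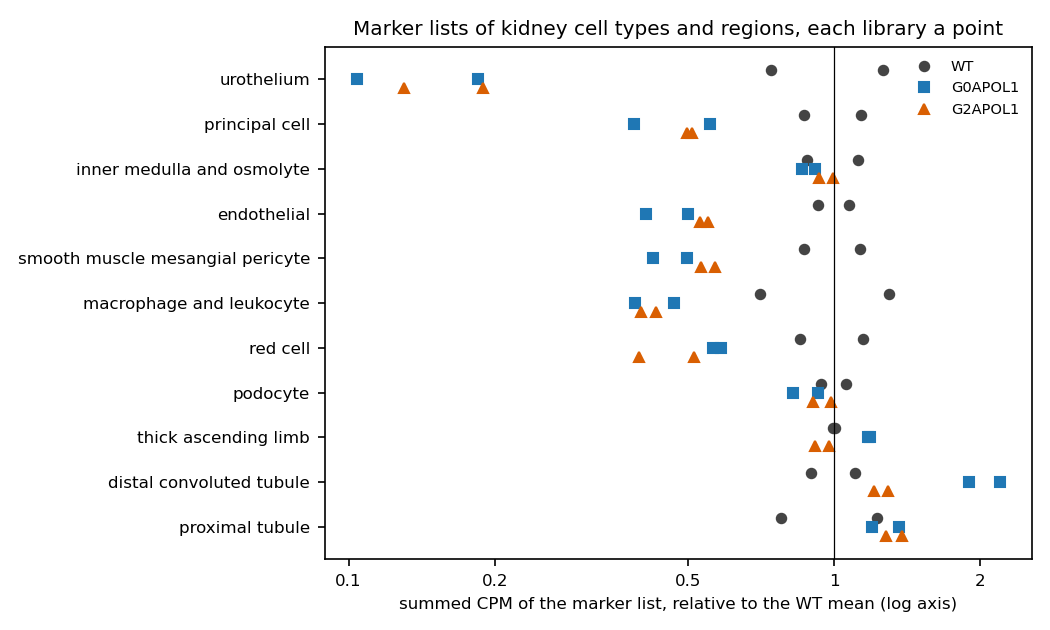
Summed CPM of marker lists in each library divided by the mean of the 2 WT libraries, on a log axis (circles WT, squares G0APOL1, triangles G2APOL1). Urothelial, principal cell, endothelial, smooth muscle, macrophage and red cell sums lie below both WT libraries in all 4 transgenic libraries. Podocyte, inner medulla and proximal tubule sums overlap with WT. The most abundant members weigh most in a sum: the median log2 fold change over tested members was -0.27, -0.62 and 1.11 in these lists.

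The urothelial sum was lower in all 4 transgenic libraries than in WT. The inner medulla sum overlapped, at 4704 and 3687 CPM in WT and 3839, 3606, 4175 and 3901 CPM in the transgenic libraries. Abundant members weigh most in such a sum, and the median log2 fold change of the 12 genes was -0.62. The sources used here do not give the share of cortex, medulla and pelvis in each tissue piece. Its part in the results was not tested. Podocyte genes, which mark glomeruli, gave 1 that rose and 0 that fell of 15 (median -0.27), or 6.67% called against 10.3% of all tested genes. Their summed level was 513 and 579 CPM in WT and 505, 448, 494 and 539 CPM in the transgenic libraries. Nphs1, the slit diaphragm protein nephrin, did not pass, at -0.07 ± 0.43. Clic5 was the gene that rose (log2 fold change 0.73 ± 0.20, adjusted p = 0.0374), a call that any single left-out library except G0APOL1 replicate 2 ended.

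Endothelial genes fell. Of 18 endothelial markers 10 fell and 0 rose (median -0.90), against 4.88% of all genes falling. Emcn, a sialomucin of capillaries and veins (ENSMUSG00000054690.17, chromosome 3, 137341067 to 137432185), was at 102 and 98.6 CPM in WT and 33.5, 26.7, 36.5 and 37.5 CPM in transgenic libraries (log2 fold change -1.58 ± 0.17, adjusted p = 0.000451). Plvap, which forms diaphragms in fenestrated capillaries, was at 267 and 269.5 CPM in WT and 100.02, 82.4, 111 and 129.8 CPM in transgenic libraries (log2 fold change -1.34 ± 0.17, adjusted p = 0.00102). The junction protein Esam was at 72.2 and 61.3 CPM in WT and 29.1, 28.9, 32.4 and 26.8 CPM in transgenic libraries (log2 fold change -1.19 ± 0.17, adjusted p = 0.00182). All 3 were lower in every transgenic library and their calls held throughout, while 5 of the 18 fell without WT replicate 2. Nos3, the endothelial nitric oxide synthase, of which 32.3% overlaps genes on the other strand, was at 11.01 and 13.4 CPM in WT and 4.59, 3.78, 6.52 and 5.55 CPM in transgenic libraries (log2 fold change -1.25 ± 0.36, adjusted p = 0.0472), a call that did not survive leaving out any single library. Kdr and Flt1, the receptors of VEGF, did not pass, at -0.06 ± 0.25 and -0.48 ± 0.21, so the fall did not reach every marker of the cell type. The summed list was at 1022 and 1182 CPM in WT and 551, 452, 584 and 607 CPM in the transgenic libraries.

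Of 10 genes of activated endothelium 5 fell and 0 rose (median -1.71). Besides Angpt2, the plasminogen activator Plat was at 85.3 and 78.9 CPM in WT and 25.2, 16.2, 20.1 and 23.7 CPM in transgenic libraries (log2 fold change -1.94 ± 0.20, adjusted p = 0.000246). The adhesion molecule Vcam1 was at 13.2 and 29.4 CPM in WT and 11.7, 4.38, 4.97 and 4.70 CPM in transgenic libraries (log2 fold change -1.72 ± 0.44, adjusted p = 0.0298). Icam1 was at 35.2 and 39.6 CPM in WT and 20.1, 15.8, 18.2 and 25.2 CPM in transgenic libraries (log2 fold change -0.91 ± 0.23, adjusted p = 0.0267). Vcam1 and Icam1 each lost their call without any of 4 single libraries, WT replicate 2 among them. Edn1, the vasoconstrictor endothelin, was at 4.36 and 4.83 CPM in WT and 0.64, 0, 0.686 and 3.10 CPM in transgenic libraries and did not pass (log2 fold change -2.04 ± 1.06, adjusted p = 0.257). Of 22 vasoactive genes 4 fell and 0 rose (18.2% called, against 10.3% of all tested genes). The prostaglandin synthase Ptgs1 was at 45.02 and 42.96 CPM in WT and 15.5, 13.6, 16.9 and 16.2 CPM in transgenic libraries (log2 fold change -1.498 ± 0.21, adjusted p = 0.0014). The receptor Ptger1, of which 71.0% overlaps exons on the other strand, was at 106 and 59.9 CPM in WT and 22.7, 33.9, 30.2 and 32.6 CPM in transgenic libraries (log2 fold change -1.48 ± 0.23, adjusted p = 0.00246). Renin, encoded by Ren1, was at 51.3 and 160.1 CPM in WT and 56.7, 43.5, 39.7 and 27.2 CPM in transgenic libraries (log2 fold change -1.34 ± 0.46, adjusted p = 0.133), with WT replicate 1 inside the range of the transgenic libraries. In the list of the renin and aldosterone system 7.14% of the genes were called, against 10.3% of all tested genes. Of 14 genes of the renin and aldosterone system 1 rose, Enpep, which cleaves angiotensin (log2 fold change 0.63 ± 0.18, adjusted p = 0.041), a call kept without G0APOL1 replicate 2 and lost without any other single library. The number that rose in this list was 3 in DESeq2, in limma-voom, and without G0APOL1 replicate 2 or WT replicate 1. Without WT replicate 2 or G2APOL1 replicate 1, 2 of the 10 activation genes fell, and without WT replicate 1 or G0APOL1 replicate 1, 3 did. The 4 vasoactive falls became 2 without either WT library, G0APOL1 replicate 1 or G2APOL1 replicate 1.

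Smooth muscle and stromal genes fell as well. Of 14 genes of smooth muscle, mesangial cells and pericytes 7 fell and 0 rose (median -0.99). Acta2, smooth muscle actin, was at 118 and 123 CPM in WT and 61.3, 49.8, 57.7 and 78.6 CPM in transgenic libraries (log2 fold change -0.96 ± 0.18, adjusted p = 0.0066). The mesangial integrin Itga8 was at 21.7 and 35.8 CPM in WT and 8.43, 5.80, 7.37 and 10.04 CPM in transgenic libraries (log2 fold change -1.86 ± 0.30, adjusted p = 0.00291). The pericyte gene Rgs5 was at 84.98 and 133 CPM in WT and 52.1, 36.9, 54.7 and 56.2 CPM in transgenic libraries (log2 fold change -1.12 ± 0.21, adjusted p = 0.00661). WT replicate 2 was the higher WT library for all 3, and without it Acta2 alone of the 14 genes passed. Of 37 matrix and fibroblast genes 18 fell and 0 rose (median -1.17). Tnc, the stromal glycoprotein tenascin C (ENSMUSG00000028364.15, chromosome 4, 63959785 to 64047015), was at 31.3 and 36.9 CPM in WT and 1.71, 2.01, 1.03 and 3.53 CPM in transgenic libraries (log2 fold change -4.05 ± 0.39, adjusted p = 0.000176). Pdgfra, the growth factor receptor of fibroblasts, was at 39.3 and 48.2 CPM in WT and 16.7, 15.5, 19.4 and 15.9 CPM in transgenic libraries (log2 fold change -1.37 ± 0.21, adjusted p = 0.00228). The basement membrane collagen Col18a1 was at 215 and 248 CPM in WT and 139, 109, 96.7 and 90.7 CPM in transgenic libraries (log2 fold change -1.09 ± 0.18, adjusted p = 0.00299). The fibrillar collagen Col3a1 was at 44.03 and 109.5 CPM in WT and 23.5, 23.7, 28.2 and 27.6 CPM in transgenic libraries (log2 fold change -1.58 ± 0.29, adjusted p = 0.00742). Tnc was about as high in both WT libraries, whereas Col3a1 had its highest value in WT replicate 2. Without WT replicate 2, 5 of the 37 passed, and the calls of Tnc, Pdgfra and Col18a1 were kept.

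Injury genes of the tubule went down more often than up, with 10 of 24 lower and 2 higher (median -0.96). Krt18, a keratin of simple epithelia, was at 114 and 69.7 CPM in WT and 24.98, 20.3, 19.8 and 20.1 CPM in transgenic libraries (log2 fold change -2.11 ± 0.21, adjusted p = 0.000219). The membrane-binding protein Anxa2 was at 129.9 and 86.8 CPM in WT and 37.1, 40.7, 32.1 and 36.96 CPM in transgenic libraries (log2 fold change -1.56 ± 0.19, adjusted p = 0.000685). Lcn2, the lipocalin released by damaged tubules, was at 21.1 and 24.4 CPM in WT and 4.16, 0.828, 4.54 and 2.03 CPM in transgenic libraries (log2 fold change -2.95 ± 0.49, adjusted p = 0.00347). Krt18 and Anxa2 are also expressed in collecting duct and urothelium, and the part of those regions in their fall was not tested. Hmox1, heme oxygenase, rose (log2 fold change 1.02 ± 0.24, adjusted p = 0.0191), as did the integrin Itgb6 (log2 fold change 0.95 ± 0.26, adjusted p = 0.0382). Neither rise was called without WT replicate 2, G0APOL1 replicate 1 or G2APOL1 replicate 2, and 1 of the 2 was without G2APOL1 replicate 1. Havcr1, the kidney injury molecule of the proximal tubule, was at 1.49 and 1.21 CPM in WT and 2.35, 1.89, 1.54 and 0.748 CPM in transgenic libraries and did not pass (log2 fold change 0.27 ± 0.96, adjusted p = 0.902).

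Calls among immune genes were mostly falls, and their share differed between the lists. Of 19 antigen presentation genes 12 fell and 0 rose (median -1.01). The class II gene H2-Eb1 was at 92.9 and 203 CPM in WT and 59.8, 58.5, 54.6 and 47.6 CPM in transgenic libraries (log2 fold change -1.42 ± 0.25, adjusted p = 0.00623). Cd74, the invariant chain, was at 313 and 699.5 CPM in WT and 216, 150.4, 188 and 163 CPM in transgenic libraries (log2 fold change -1.499 ± 0.27, adjusted p = 0.00893). In both genes WT replicate 2 stood far above WT replicate 1. Without it 2 of the 19 passed, and without G0APOL1 replicate 1 or G2APOL1 replicate 2 the count was 6, and without G2APOL1 replicate 1 it was 7. Of 22 macrophage and leukocyte markers 7 fell and 0 rose (median -1.15). C1qa, a complement subunit made by macrophages, was at 28.6 and 48.2 CPM in WT and 7.79, 12.3, 9.86 and 10.5 CPM in transgenic libraries (log2 fold change -1.93 ± 0.27, adjusted p = 0.00149). Cd14, the endotoxin co-receptor, was at 18.9 and 15.4 CPM in WT and 5.34, 3.19, 4.63 and 5.66 CPM in transgenic libraries (log2 fold change -1.86 ± 0.34, adjusted p = 0.00562). Csf1r and Adgre1, which define tissue macrophages, did not pass, at -0.15 ± 0.15 and 0.15 ± 0.99. The summed list was at 595 and 1097 CPM in WT and 395, 329, 363 and 339 CPM in the transgenic libraries. Of the 22 genes 4 passed without WT replicate 2.

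Of 39 interferon-stimulated genes 14 fell and 0 rose, with a median of -1.41. Ifit3, an antiviral RNA-binding protein with 1 near-identical copy, was at 32.9 and 28.6 CPM in WT and 8.33, 8.99, 9.09 and 7.80 CPM in transgenic libraries (log2 fold change -1.84 ± 0.24, adjusted p = 0.00108), with a log2 ratio of -1.84 when the copy was summed. Xaf1 was at 11.01 and 13.4 CPM in WT and 2.24, 1.30, 1.46 and 2.35 CPM in transgenic libraries (log2 fold change -2.72 ± 0.44, adjusted p = 0.00269). Irf7, the master factor of the type I response, was at 16.5 and 34.9 CPM in WT and 5.55, 4.85, 7.63 and 6.62 CPM in transgenic libraries (log2 fold change -2.05 ± 0.34, adjusted p = 0.00321). The ubiquitin-like modifier Isg15 was at 7.24 and 12.4 CPM in WT and 2.78, 1.89, 4.71 and 2.14 CPM in transgenic libraries (log2 fold change -1.76 ± 0.48, adjusted p = 0.0382). Ifit3 and Xaf1 were even within each group, and Irf7 was highest in WT replicate 2, without which its call was lost. The Isg15 call was lost without WT replicate 2, either G0APOL1 library or G2APOL1 replicate 2. Ifit1 and Cxcl10 did not pass, at -1.46 and 0.93 on the log2 scale. The count of 14 became 6 without WT replicate 2, 8 without G0APOL1 replicate 1 and 9 without G2APOL1 replicate 2. The interferon-stimulated response element, a pair of GAAA blocks with 2 free bases between them and searched on both strands, was found in the promoter windows of 18 of 29 members tested (62.1%), among them 6 of 12 that fell (50%), and in 407 of the 10754 tested genes (3.78%). Both the 14 that fell and the 6 with the element include Ifit3 and its near-identical copy Ifit3b. The matched windows of these genes hold the same letters, so they are not separate measurements. Isg15 held 3 matches that overlap each other, of which 1 is shown. The windows of 3 genes that fell are printed to show the element as it stands in the genome, though the call of Ifih1 held only without WT replicate 2 among the left-out libraries, in gene orientation and with the match in capitals.

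Ifit3, chr19:34583397-34583426, plus strand: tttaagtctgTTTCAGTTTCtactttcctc
Isg15, chr4:156200865-156200894, minus strand: aaaggaaaccGAAACAGAAAatagctctgg
Ifih1, a sensor of viral RNA, chr2:62646206-62646235, minus strand: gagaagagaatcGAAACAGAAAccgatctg

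Complement and acute phase genes gave 7 that fell and 1 that rose of 22. Serping1, the inhibitor of the first complement component (ENSMUSG00000023224.12, chromosome 2, 84765387 to 84775444), was at 228 and 276 CPM in WT and 76.3, 59.96, 40.7 and 47.3 CPM in transgenic libraries (log2 fold change -2.17 ± 0.22, adjusted p = 0.000246). The lipid carrier Apoe was at 257 and 326 CPM in WT and 113, 123, 131 and 125 CPM in transgenic libraries (log2 fold change -1.24 ± 0.15, adjusted p = 0.000713). The copper carrier Cp was at 59.1 and 78.8 CPM in WT and 32.1, 32.2, 21.8 and 27.6 CPM in transgenic libraries (log2 fold change -1.28 ± 0.21, adjusted p = 0.00284). All 3 passed whichever single library was left out. Cfb, of which 79.5% overlaps another gene model on the same strand, was the gene that rose (log2 fold change 0.87 ± 0.20, adjusted p = 0.0162), a call kept without G0APOL1 replicate 2 or WT replicate 1 and lost without any other library. The count that fell became 3 without WT replicate 2. Of 19 genes of the NF-kB pathway and its cytokines 3 fell and 0 rose (15.8% called, against 10.3% of all tested genes). Among them was the subunit Rela, at 67.3 and 59.1 CPM in WT and 33.5, 38.8, 39.5 and 37.3 CPM in transgenic libraries (log2 fold change -0.76 ± 0.17, adjusted p = 0.014). The inhibitor Nfkbia also fell and was at 41.2 and 44.8 CPM in WT and 24.02, 30.9, 15.6 and 14.8 CPM in transgenic libraries (log2 fold change -1.01 ± 0.28, adjusted p = 0.0401). The Rela call was lost without WT replicate 1, and the Nfkbia call without any library except G0APOL1 replicate 2. Without WT replicate 2, 1 gene of this list fell. Red cell genes also differed, with 4 of 8 lower and 1 higher. Slc4a1, already counted among the intercalated cell genes, is 1 of the 4. The globin Hba-a1 was at 1390.2 and 1171 CPM in WT and 521, 500.0, 280.0 and 234 CPM in transgenic libraries (log2 fold change -1.74 ± 0.31, adjusted p = 0.0092). The erythroid heme enzyme Alas2 was at 15.3 and 9.45 CPM in WT and 4.70, 5.68, 3.69 and 4.06 CPM in transgenic libraries (log2 fold change -1.45 ± 0.38, adjusted p = 0.0297). Hba-a1 has a near-identical copy, with which the summed log2 ratio was -1.18, and its call was lost without either WT library. The Alas2 call was lost without WT replicate 1, G0APOL1 replicate 1 or either G2APOL1 library, 15.5% of its length overlaps genes on the other strand, and 1 red cell gene fell without WT replicate 1. The sources used here do not say how much blood each kidney held, and its part in the results was not tested.

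The remaining lists are read against the 10.3% of all tested genes that were called. Of 19 cell cycle genes 0 passed in the edgeR test, 0 had an unadjusted p under 0.05, 1 passed in DESeq2 and 0 in limma-voom. Of 22 genes of the unfolded protein and integrated stress response 1 rose, the factor Xbp1, at 75.8 and 59.9 CPM in WT and 173, 123, 136 and 158 CPM in transgenic libraries (log2 fold change 1.12 ± 0.19, adjusted p = 0.0035), and 1 fell, Ppp1r15a (log2 fold change -1.01 ± 0.29, adjusted p = 0.0434), whose call was lost without WT replicate 2, G0APOL1 replicate 1 or either G2APOL1 library. Hspa5, the chaperone BiP, did not pass at 0.70 ± 0.25 (adjusted p = 0.104). Of 17 hypoxia genes 2 rose and 1 fell (17.6%), and without WT replicate 2 none was called. Ndrg1 was at 534 and 479 CPM in WT and 1524, 2671, 1167 and 1148 CPM in transgenic libraries (log2 fold change 1.68 ± 0.35, adjusted p = 0.0175). Hif1a, the oxygen-regulated factor itself, was at 85.5 and 82.1 CPM in WT and 45.2, 56.4, 50.8 and 52.02 CPM in transgenic libraries (log2 fold change -0.71 ± 0.16, adjusted p = 0.0141). Ndrg1 was highest in the G0APOL1 libraries and lost its call without either WT library, and Hif1a lost it without WT replicate 2. Of 13 genes of inflammasomes and lytic death 1 fell, Casp4, at 2.58 and 12.2 CPM in WT and 0.427, 1.42, 0.343 and 0.32 CPM in transgenic libraries (log2 fold change -3.55 ± 0.82, adjusted p = 0.0172), and its call was lost without WT replicate 2 or G0APOL1 replicate 1 and in limma-voom (adjusted p = 0.0748). Of 19 circadian genes Hlf and Bhlhe40 rose and 0 fell. Hlf, a leucine zipper output factor, was at 53.2 and 48.3 CPM in WT and 119, 114, 91.8 and 104 CPM in transgenic libraries (log2 fold change 1.08 ± 0.17, adjusted p = 0.00245), while Arntl, at 0.595 and 0.549 CPM in WT and 0.747, 2.37, 1.71 and 1.71 CPM in transgenic libraries, and Dbp, at 253 and 244 CPM in WT and 86.9, 56.3, 204 and 168 CPM in transgenic libraries, did not pass (adjusted p = 0.465 and 0.349). The sources used here give no time of day of collection. The metallothioneins Mt1 and Mt2 were 2 of 15 glucocorticoid-responsive genes, of which 4 fell and 0 rose (26.7%). The median log2 fold change of the 15 was 0.17 for G0APOL1 and -1.30 for G2APOL1, and 2 of the 15 passed between the transgenes. Their summed level was 1264 and 1617 CPM in WT and 1045, 1608, 713 and 738 CPM in the transgenic libraries, so the G0APOL1 libraries overlapped WT and the G2APOL1 libraries lay below it. The 4 became 8 without G0APOL1 replicate 2, 2 without G0APOL1 replicate 1 or either G2APOL1 library, and 1 without WT replicate 2. Mt1 was at 350.1 and 635 CPM in WT and 228, 253, 199.8 and 207 CPM in transgenic libraries (log2 fold change -1.15 ± 0.21, adjusted p = 0.0053), highest in WT replicate 2, and its call was lost without that library.

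Among the pooled calls 3 also passed between the transgenes in edgeR, and 30 in DESeq2. The pooled fit counts a difference between the transgenes as spread within the group, so genes that differ between them are less likely to be called, and these counts do not measure how alike the transgenes are. Hsd3b3, a steroid dehydrogenase (ENSMUSG00000062410.14, chromosome 3, 98741523 to 98763127) with the near-identical copy Hsd3b2, was at 8.33 and 6.26 CPM in WT and 82.1, 92.8, 41.7 and 36.6 CPM in transgenic libraries, and the pooled log2 ratio with the copy summed was 1.31. Its log2 fold change against WT was 3.58 ± 0.25 for G0APOL1 and 2.42 ± 0.24 for G2APOL1, and the difference of G2APOL1 from G0APOL1 was -1.16 ± 0.22 (adjusted p = 0.0375). For the reads assigned to Hsd3b3, both G0APOL1 libraries were thus above both G2APOL1 libraries, and all 4 were above WT. The copy Hsd3b2 differed between the transgenes in the other direction (1.53 log2). How reads were divided between the copies is uncertain, and the difference with the copies summed was not tested. Calb1, the calcium-binding calbindin of the distal nephron (ENSMUSG00000028222.2, chromosome 4, 15881264 to 15908064), was at 127 and 157 CPM in WT and 506, 470.2, 272 and 222 CPM in transgenic libraries, with 1.78 ± 0.20 for G0APOL1, 0.80 ± 0.20 for G2APOL1 and a difference of -0.98 ± 0.20 (adjusted p = 0.0455). Nccrp1 fell in both, at 117 and 114 CPM in WT and 26.5, 23.8, 51.9 and 53.1 CPM in transgenic libraries, with -2.20 ± 0.19 for G0APOL1, -1.14 ± 0.19 for G2APOL1 and a difference of 1.06 ± 0.19 (adjusted p = 0.0262). In all 3 genes the change from WT was larger in G0APOL1. Their pooled calls were each lost without either WT library, that of Calb1 also without either G0APOL1 library and in limma-voom (adjusted p = 0.0636). The other 1478 pooled calls did not pass between the transgenes, which does not show that they were equal.

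**Figure D5:**
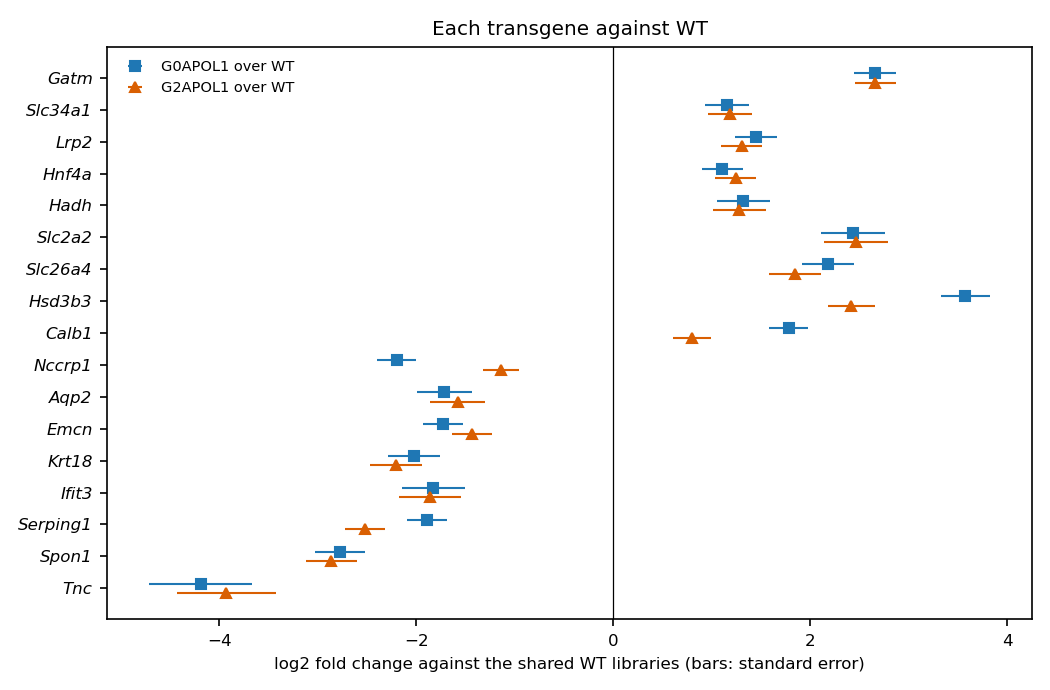
Log2 fold change against WT for G0APOL1 (squares) and G2APOL1 (triangles), with bars for the standard error, in 17 named genes. Both comparisons use the same 2 WT libraries. Hsd3b3 has a near-identical copy, Hsd3b2, that differed between the transgenes in the other direction. The 2 symbols of a gene lie close together except in Hsd3b3, Calb1 and Nccrp1, the genes that also differed between the transgenes, and Serping1.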

How the data were processed

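RNA from 10 mg of frozen kidney per library was extracted with a Qiagen RNeasy kit, accepted at an RNA integrity number of at least 6, and made into libraries with the NEBNext Ultra RNA kit, per the labels' protocols. The authors deposited 1 table of expected counts per gene (estimated read numbers, not scaled between libraries), of which 1.39% to 1.55% per library were not whole. The submitters' processing notes list mm10 and Cell Ranger ARC 2.0.2 without a role; no aligner or counter is given in the sources used here. Positions, biotypes and symbols are from GENCODE M21 (GRCm38), which matched 54079 of 54146 identifiers; 195 symbols were not unique.

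Counts were rounded to whole numbers, filtered with edgeR's filterByExpr by group (14386 genes kept), scaled with TMM and fitted with 2 groups (edgeR 4.0.16, R 4.3.3, glmQLFit robust, 4 residual degrees of freedom, common biological coefficient of variation 0.337, 8.31 prior degrees of freedom). The quasi-likelihood F test was two-sided, with Benjamini-Hochberg adjustment over all tested genes and a threshold of 0.05. Standard errors are the log2 fold change divided by the square root of F. A second fit with 3 groups gave each transgene against WT and G2APOL1 against G0APOL1. With 2 libraries in WT and 4 in the transgenic group, depth and the number of libraries both limit precision; floors of 3 counts and 95% exact intervals cover counting error only.

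The members and the 43 gene lists (760 genes) were chosen with earlier results of these data known. Lists are described by counts and medians, with no set test. Some genes, among them Slc22a8, Slc22a5, Gatm and Cd74, belong to more than 1 list and are counted in each. The counts of such lists are therefore not independent. Named genes are called genes with separated groups and at least 5 CPM in the higher group, without predicted models or pseudogenes: the 10 with the largest rise, the largest fall, the smallest p, and the largest rise and fall in CPM. To these come up to 4 members per list with the smallest p, up to 6 called genes with the smallest p between the transgenes, and Edn1, Nos3, Ren1, Havcr1, Lcn2, Vcam1, Hnf4a, Arntl, Dbp, Xist and Ddx3y. Xist did not reach the tested set, and some genes that the rule names are not reported here. Other list members are named for their known role, after their values were seen. Near-identical copies are transcripts aligning at 95% identity or more over 50% of the length (minimap2 2.31). Promoter sequences are from RefSeq. Alternatives were DESeq2 1.42.0 size factors and test, limma-voom (limma 3.58.1), other low-count filters, a replicate block, a fit with 3 groups, and fits without mitochondrial genes or without 1 library. The fit was also run on counts simulated with known changes, where the check required only that the direction of the changes was returned. Figures were drawn with matplotlib 3.10.9.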

Additional observations from a re-analysis of the deposited data

Results flagged for a closer look

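Among the 164 genes named, 12 had 1 of the 4 transgenic libraries far from the other 3 by Dixon's test at the 95% level, where chance gives about 1 in 20. G0APOL1 replicate 1 stood alone for Slc6a19 at 35.3 CPM, Oit1 at 0.32 CPM, Krt18 at 24.98 CPM, Hspa5 at 832 CPM, Vcam1 at 11.7 CPM and Gclc at 291 CPM. G0APOL1 replicate 2 stood alone for Slc27a2 at 3160.04 CPM, Mt2 at 88.8 CPM, Slc12a3 at 628 CPM and Casp4 at 1.42 CPM. In G2APOL1 the library standing alone was replicate 2 for Slc6a12 at 8.12 CPM and replicate 1 for Upk1b at 1.29 CPM.

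In 6 of the genes named the response differed between the transgenes, by the test of G2APOL1 against G0APOL1. The log2 difference was -1.16 for Hsd3b3, -0.98 for Calb1 and 1.06 for Nccrp1, which are among the pooled calls, and -1.54 for Pck1, 1.38 for Dbp and 1.53 for Hsd3b2, the near-identical copy of Hsd3b3, which are not. Pck1 was at 1706 and 1683 CPM in WT and 3023, 4669, 1282 and 1359 CPM in transgenic libraries, so the G0APOL1 libraries lay above WT and the G2APOL1 libraries did not. Dbp was at 253 and 244 CPM in WT and 86.9, 56.3, 204 and 168 CPM in transgenic libraries, with G0APOL1 below both other groups.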

How the results depend on the processing

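No alternative other than leaving out a library moved the pooled counts by more than 1.5 times: called genes ranged from 1425 with DESeq2 size factors to 1954 with DESeq2, and between 1388 and 1480 of the 1481 were shared. Under DESeq2 size factors 711 genes were higher and 714 lower. Leaving out a library gave 639 to 1709 called genes, 343 to 913 higher and 296 to 796 lower, 124 to 1027 that also passed for each transgene alone, 14 to 123 between the transgenes, and 0 to 2 in both of the last comparison and the pooled one. The direction was kept in all 1481 calls. Each of them has all transgenic libraries on one side of both WT libraries, so leaving out 1 library could hardly change it. A fit with 1 WT library assumes that it varies like the others. Between the transgenes 69 genes became 245 without a low-count filter, 151 with DESeq2 and 120 with the replicate block. Pooled calls among them became 21 without the filter, 30 with DESeq2 and 5 with limma-voom. The cause was not tested.

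Replicate numbers did not pair the libraries, with correlations of 0.0956, 0.0578 and 0.0426 between same-numbered libraries of different groups. With the replicate number as a block 1642 genes were called, 923 higher and 719 lower, 1410 of them shared, 1058 passed for each transgene alone and 3 were also called between the transgenes. Of the genes named, Ndrg1 (adjusted p = 0.0721), Ifih1 (0.0722), Calb1 (0.137), Nos3 (0.054) and Hba-a1 (0.0524) did not pass with the block.

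Genes whose sign changed had not been called. Over the fits without a library Nphs1 ranged from -0.40 to 0.31, Kdr from -0.40 to 0.36, Scnn1g from -0.24 to 0.80 and Adgre1 from -0.65 to 2.05. Low counts limit what can be said of genes under a few CPM.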

Other observations

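Of 12 tested genes known to vary between mouse strains 2 rose and 2 fell (33.3%, against 10.3% of all tested genes called). The 2 that fell were Casp4, a caspase described above, and the globin Hbb-bt, at 99.5 and 68.1 CPM in WT and 39.4, 46.5, 42.3 and 31.2 CPM in transgenic libraries (log2 fold change -1.07 ± 0.20, adjusted p = 0.00667), a call lost without WT replicate 1. The 2 that rose, Entpd4 and Entpd4b, are near-identical copies that received the same counts and so are a single measurement. They were at 98.4 and 68.1 CPM in WT and 185, 153, 195 and 179 CPM in transgenic libraries (log2 fold change 1.10 ± 0.19, adjusted p = 0.0038). Of the tested sex-linked or sex-biased genes 2 rose and 0 fell (15.4% called). Cyp2j13 was at 178 and 146 CPM in WT and 265, 368, 303 and 299.9 CPM in transgenic libraries (log2 fold change 0.93 ± 0.18, adjusted p = 0.00698), and Slco1a1 at 242 and 161 CPM in WT and 319, 298, 469.5 and 461 CPM in transgenic libraries (log2 fold change 0.94 ± 0.24, adjusted p = 0.0286). Both calls were lost without WT replicate 2, and that of Slco1a1 also without either G2APOL1 library. The strain background is not given in the sources used here, and its part in the results was not tested. Immediate early genes were called at 6.25%, under the share of all tested genes. Of 16 immediate early genes 1 fell, Klf6, at 31.4 and 27.1 CPM in WT and 13.02, 13.1, 16.2 and 17.4 CPM in transgenic libraries (log2 fold change -0.97 ± 0.24, adjusted p = 0.0223), a call lost without either WT library or G0APOL1 replicate 1. Of 5 tested liver genes Apob rose, at 48.3 and 32.5 CPM in WT and 127, 116, 89.1 and 69.97 CPM in transgenic libraries (log2 fold change 1.32 ± 0.26, adjusted p = 0.00945), a call lost without WT replicate 2, and Alb did not pass at 1.49 and 3.08 CPM in WT and 10.7, 7.81, 2.91 and 6.41 CPM in transgenic libraries. Adipocyte genes gave 0 calls of 7 in edgeR, where 1 had an unadjusted p under 0.05 and 1 passed in each of DESeq2 and limma-voom. Of the adrenal list 1 gene was tested, which did not pass, and of the skeletal muscle list none was.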
